A study of Mus musculus with 12 samples.

Results

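The cortical expression of 57 DNA damage repair genes was compared between mice after binge-like ethanol drinking and water-drinking controls. The 57 genes were chosen by symbol as members of the main repair pathways, by a rule that uses no measured value, though with earlier results of these data known, out of 33024 gene symbols in the count table. All 57 were found and all 57 were expressed highly enough to be tested, among 16059 genes tested in total. The members comprised 8 genes of damage signalling, 10 of homologous recombination, 6 of end joining, 11 of base excision and single-strand break repair, 4 of mismatch repair, 9 of nucleotide excision, 6 of interstrand crosslink repair, 2 of the replication clamp and single-strand DNA binding, and 1 of direct reversal.

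RNA was taken from the brain cortex of 12 C57BL/6 mice, 7 in the Control group and 5 in the EtOH group, each library being 1 mouse. From 30 days of age, EtOH mice were offered a bottle of 20% (v/v) ethanol beside a bottle of water in sessions tied to the dark cycle on each of 35 drinking days (the drinking-in-the-dark paradigm 2BC-DID), and Control mice were offered water in both bottles. Both groups then went through 14 days of abstinence and a set of behavioural tests, and were perfused with saline before the cortex was removed, so that the RNA reports on the cortex at least 14 days after the last drink and after that testing. The EtOH mice chose how much they drank, no allele was altered in either group, and the labels name no batch.

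Cells meet several kinds of DNA damage with separate pathways. Small oxidised or alkylated bases are removed by base excision, bulky and ultraviolet lesions by nucleotide excision, replication errors by mismatch repair and crosslinks by the Fanconi anaemia proteins, while double-strand breaks are joined end to end or copied from a sister chromatid. Homologous recombination and much of the crosslink pathway work mainly in dividing cells, whereas neurons, which do not divide, rely on excision repair and end joining. The products of ethanol oxidation include acetaldehyde, which can form adducts and crosslinks in DNA, and the comparison asks whether the transcripts of the repair machinery differed after drinking had stopped.

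Of the 57 repair genes, 9 were higher in EtOH mice and 0 were lower at an adjusted p under 0.05 (edgeR's quasi-likelihood test, Benjamini-Hochberg adjustment over all genes tested). The 9 genes were Pms2, Prkdc, Ddb2, Rpa1, Parp1, Ercc2, Fanca, Atm and Dclre1c, and they make 15.8% of the members. Over all genes tested, 12.1% were called higher and 11.6% lower, so the share of repair genes called higher was near the background and the share called lower was below it. At an unadjusted p under 0.05, 17 members (29.8%) were higher against 18.6% of all genes, and 2 (3.51%) were lower (Ung and Rnf8) against 17.9% of all genes. DESeq2 and limma voom called 0 members lower as well, where they called 13.0% and 11.3% of all genes lower.

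The changes were small. The median log2 fold change of the 57 genes, EtOH against Control, was 0.05, beside 7.21e-05 over all genes tested, and 38 of the 57 had a positive value. Members ranged from -0.47 (Ung) to 0.52 (Fanca), and 42 of them lay within 0.25 of no change in either direction. The 9 called genes were 1.12-fold (Parp1) to 1.43-fold (Fanca) higher. With the additional minimum log2 fold change of 0.5 in size that the study used, 1 member was called higher, Fanca, where 4.2% of all genes tested were called higher and 4.09% lower. For 36 of the 48 genes that were not called, the whole 95% interval of the log2 fold change lay within 0.5 of 0 in either direction, and for the other 12 it reached further. In bulk tissue, more or less RNA per cell cannot be told apart from more or fewer cells that express a gene.

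**Figure D1:**
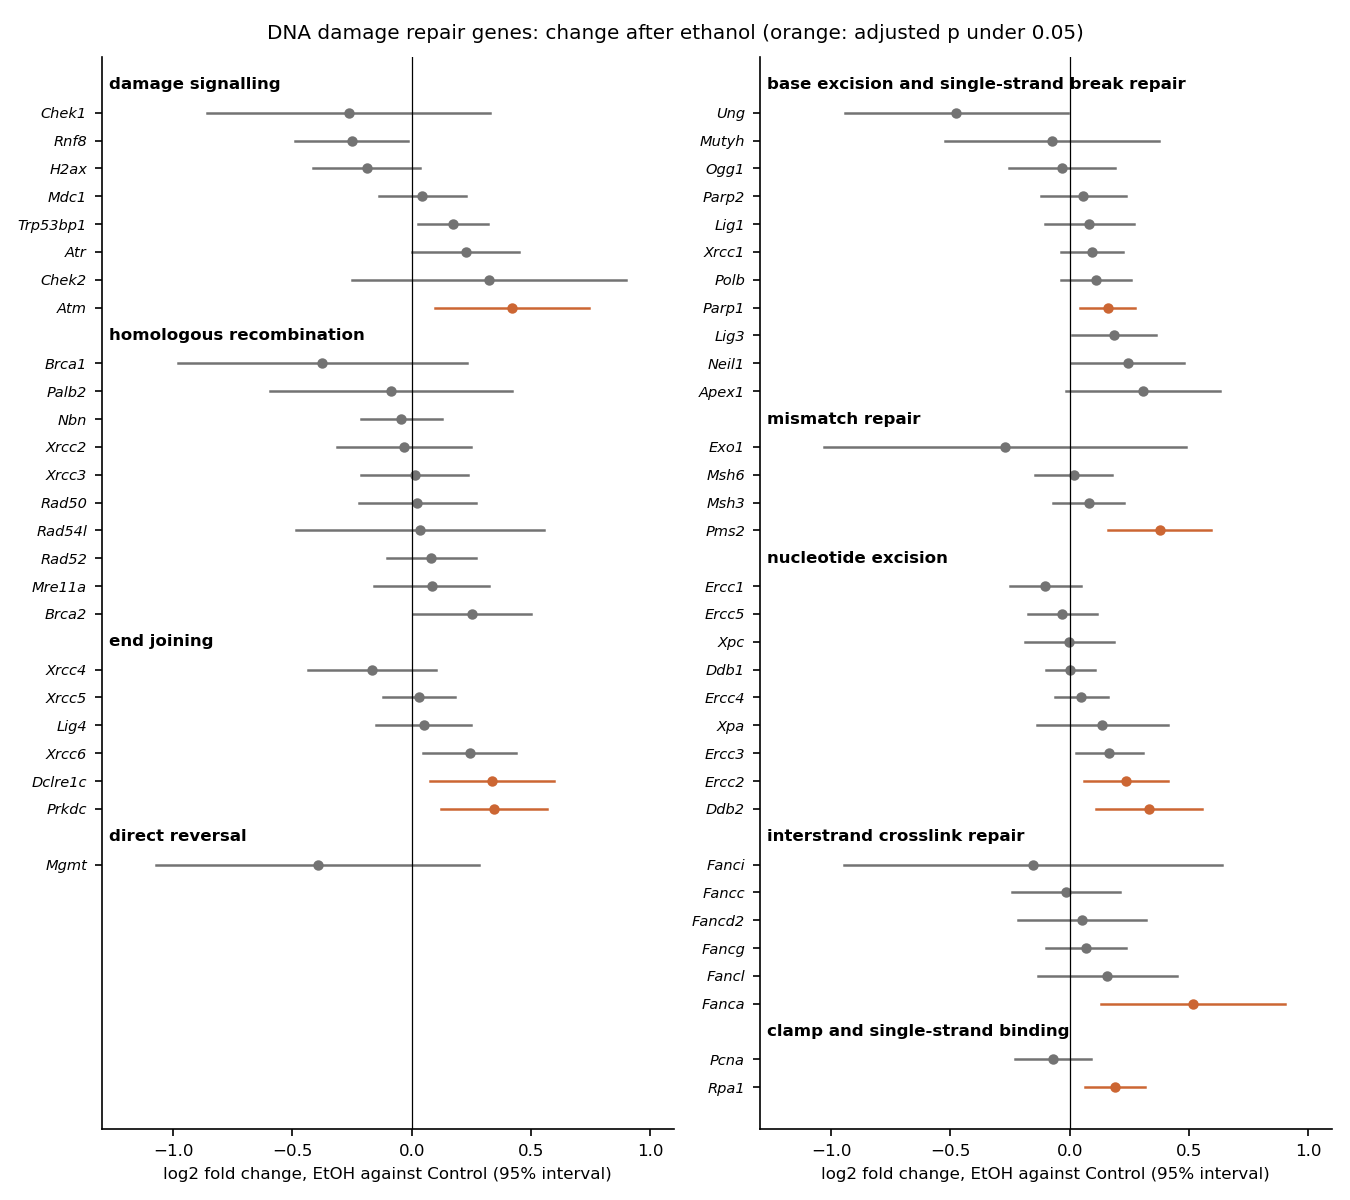
Log2 fold change of each of the 57 repair genes in EtOH against Control mice (horizontal axis), with points for the estimate and lines for its 95% interval, grouped by pathway. The 9 genes called higher are in orange, from Parp1 at 0.16 to Fanca at 0.52, and no gene called lower is seen on the left of 0.

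Repair genes differed far more from one another than between groups. On the scale of mean CPM per kilobase of transcript in Control mice (CPM, read counts scaled to a common library size), levels ran from 0.0788 for Exo1, a 5′ to 3′ exonuclease of mismatch repair, to 56.6 for Ddb1, an adaptor of the CUL4 ubiquitin ligase that also serves damage recognition. The ratio between them was 718 and the median of the 57 genes was 3.67 CPM per kilobase. These ranks rest on the length of the canonical transcript. By mean CPM in Control mice, Fanci (0.475) was below Exo1 (0.615), and Chek2 (0.844) was below Chek1 (1.52). By pathway, the medians were 13.6 for the 2 genes of the clamp and single-strand binding, 5.11 for nucleotide excision, 3.84 for end joining, 3.67 for base excision, 2.82 for mismatch repair, 1.61 for homologous recombination, 1.41 for damage signalling and 1.39 for crosslink repair, with 0.266 for the 1 gene of direct reversal. Excision and end joining genes thus had higher medians than the genes of recombination and crosslink repair.

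Within damage signalling, the highest level per length was that of H2ax (23.0 CPM per kilobase), the histone variant phosphorylated next to breaks, and the lowest that of Chek1 (0.175), the checkpoint kinase downstream of Atr. Among recombination genes, Rad52, a strand-annealing protein, had 7.02 and Rad54l, a motor protein that assists strand exchange, had 0.119. Xrcc5, which encodes Ku80, led end joining with 7.13. Polb, the gap-filling DNA polymerase of base excision, had 27.3 and Ung, which removes uracil from DNA, had 1.13. Msh3, a partner in recognition of insertion and deletion loops, led mismatch repair with 4.94. In the crosslink pathway, Fancg, a subunit of the Fanconi core complex, had 5.17 and Fanci, the partner of Fancd2, had 0.102. Pcna, the sliding clamp of replication, had 19.2, and Mgmt, which takes methyl groups off guanine, had 0.266.

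Low levels limit what could be seen. A total of 9 members were under 2 CPM in Control mice, 1 of which was called (Fanca), and the lowest count of any member in any mouse was 6. Over 20 CPM stood 15 members.

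**Figure D2:**
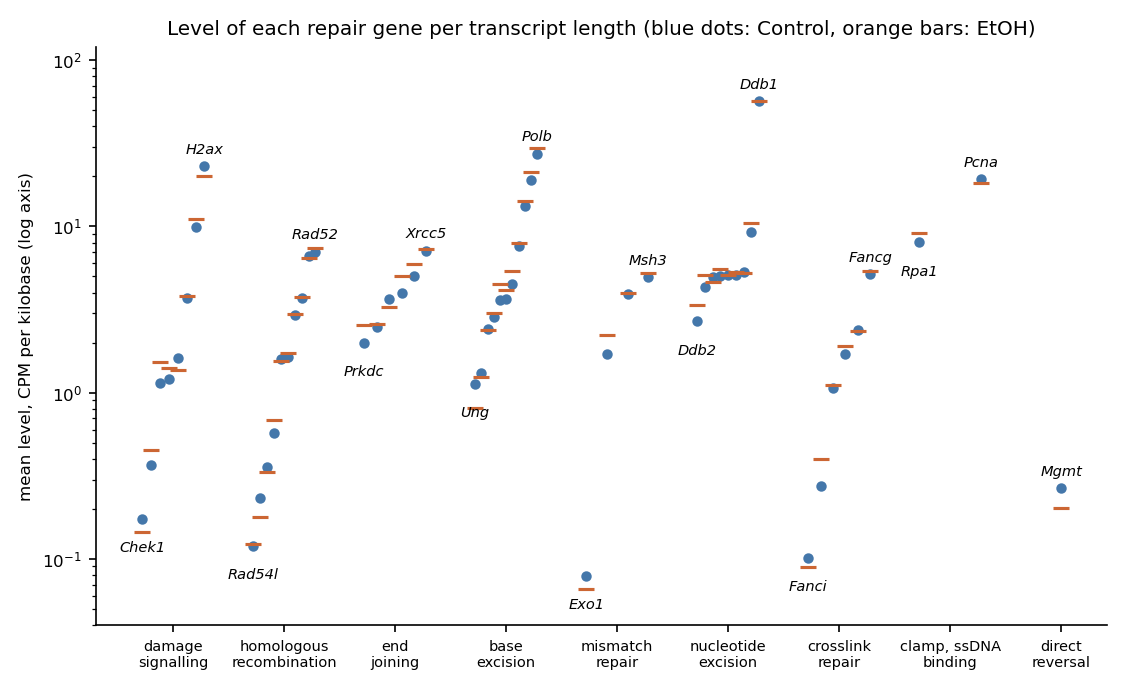
Mean level of each repair gene in CPM per kilobase of transcript (vertical log axis) by pathway, with blue dots for Control and orange bars for EtOH mice. The named genes are the highest and lowest of each pathway; dots and bars of a gene lie close together beside a range from 0.0788 (Exo1) to 56.6 (Ddb1).

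In mismatch repair, Pms2 was higher after ethanol. Pms2 encodes the endonuclease subunit that nicks the strand to be corrected. Its level was 10.8, 13.5, 12.1, 11.5 and 12.7 CPM in EtOH mice 1 to 5, and 7.72 CPM in the lowest, 9.56 in the median and 10.97 in the highest Control mouse. A total of 4 EtOH mice lay above every Control mouse, and only EtOH 1 lay within their range. The means were 9.30 ± 1.23 CPM (SD, n = 7) and 12.1 ± 1.06 CPM (SD, n = 5), which is a log2 fold change of 0.38 with an SE of 0.10 (adjusted p = 0.00936), the smallest adjusted p among the members. Pms2 (chr5:143846412-143870786, plus strand, GRCm39) shares exon positions with Rsph10b and Gm42421 on its own strand and with Aimp2 on the other, and it was the 1 member whose deposited counts were not all whole numbers. Its reads can therefore not be fully assigned to Pms2 alone. Msh6, which pairs with another MutS protein to find base mismatches and whose protein the study discussed, had 17.0 ± 1.25 CPM in Control and 17.2 ± 1.31 CPM in EtOH mice (log2 fold change 0.02, 95% interval -0.14 to 0.18). The values of Msh3 (0.08) and Exo1 (-0.27) did not pass the test either.

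In end joining, 2 of 6 genes were higher. Prkdc encodes the catalytic subunit of DNA-PK, the kinase that Ku recruits to broken ends. EtOH mice 1 to 5 had 33.3, 31.9, 33.9, 31.9 and 29.5 CPM, and Control mice ran from 19.4 through a median of 23.6 to 31.2 CPM. Control 5 and Control 6 (31.2 and 30.8 CPM) were the mice that reached into the EtOH range. The means were 25.2 ± 4.43 and 32.1 ± 1.72 CPM, with a log2 fold change of 0.35 (SE 0.10, adjusted p = 0.0185). Dclre1c, the nuclease Artemis that DNA-PK activates to trim ends, had 11.6, 13.3, 13.7, 11.4 and 12.9 CPM in EtOH mice and 7.08, 10.5 and 12.3 CPM in the lowest, median and highest Control mouse. The groups overlapped, with 3 EtOH mice above all Control mice, and the log2 fold change was 0.34 (SE 0.12, adjusted p = 0.0449).

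Xrcc6, which encodes Ku70, the other subunit of the end-binding ring, had 10.7 ± 0.965 CPM in Control and 12.6 ± 1.44 CPM in EtOH mice and missed the threshold (log2 fold change 0.24, adjusted p = 0.0533). Its partner Xrcc5 had a log2 fold change of 0.03 with a 95% interval from -0.12 to 0.18. The ligase Lig4 (0.05) and its scaffold Xrcc4 (-0.17) were not called.

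In damage signalling, 1 of 8 genes was higher. Atm encodes the kinase that responds to double-strand breaks by phosphorylating H2AX, p53 and many other proteins. Its level was 21.7, 18.0, 18.8, 17.1 and 20.6 CPM in EtOH mice and 9.01, 13.7 and 20.7 CPM in the lowest, median and highest Control mouse. All EtOH mice lay above 6 of the 7 Control mice, while Control 5 stood as high as the EtOH group. Atm (chr9:53348097-53448236, minus strand, GRCm39) thus had 14.3 ± 3.75 CPM in Control and 19.2 ± 1.89 CPM in EtOH mice, a log2 fold change of 0.42 (SE 0.15, adjusted p = 0.0441).

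Trp53bp1 encodes 53BP1, a protein that gathers at breaks and favours end joining. Its level was 115, 105, 101, 102 and 113 CPM in EtOH mice and 87.5, 91.9 and 114 CPM in the lowest, median and highest Control mouse, with Control 5 again apart from the other Control mice. The log2 fold change of 0.17 missed the threshold (SE 0.07, adjusted p = 0.0626). The estimate for H2ax was negative and did not pass the test, with 25.4, 23.2, 31.2, 28.7 and 31.3 CPM in EtOH mice against 26.5, 31.4 and 39.5 CPM in the lowest, median and highest Control mouse (log2 fold change -0.19, adjusted p = 0.185). The transcript of H2ax says nothing of the phosphorylated protein that marks breaks in stained tissue. Of the other 5 signalling genes, 4 had log2 fold changes of 0.23 for Atr, the kinase that responds to single-stranded DNA, 0.32 for Chek2, the checkpoint kinase downstream of Atm, 0.05 for the adaptor Mdc1 and -0.25 for the ubiquitin ligase Rnf8. The fifth, Chek1, had -0.26 with a wide interval from -0.86 to 0.33.

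**Figure D3:**
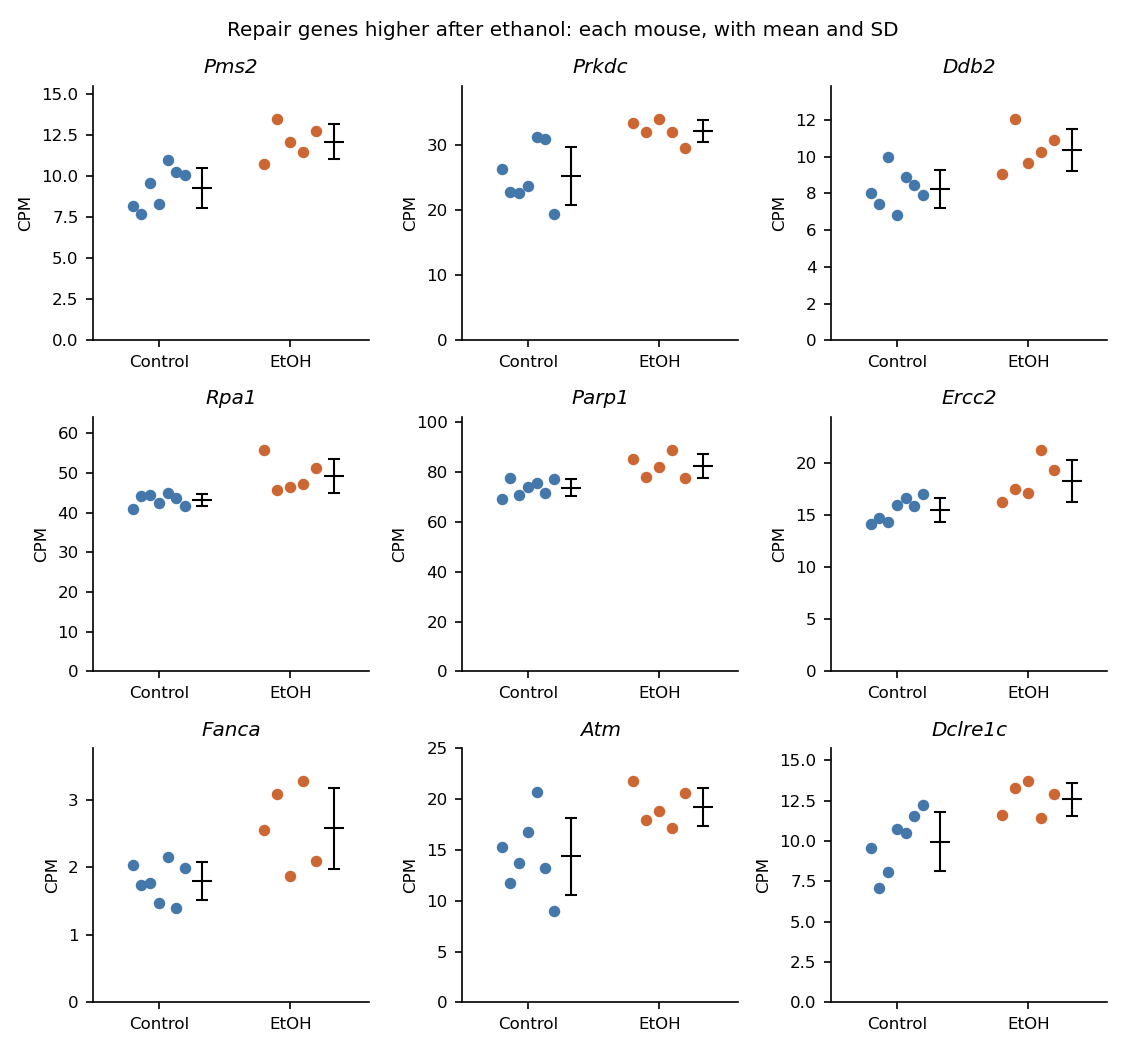
Level in CPM (vertical axis, from 0) of the 9 repair genes called higher, with 1 point per mouse (blue, 7 Control; orange, 5 EtOH) and a bar for the mean with its SD. The groups overlap in every panel except that of Rpa1, where the lowest EtOH mouse (45.6 CPM) lies above the highest Control mouse (44.8 CPM).

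Nucleotide excision held 2 called genes of 9. Ddb2, a sensor of ultraviolet lesions, had 9.04, 12.04, 9.66, 10.3 and 10.9 CPM in EtOH mice and 6.85, 8.05 and 10.005 CPM in the lowest, median and highest Control mouse. Control 3 was the 1 Control mouse in the EtOH range, and the means of 8.23 ± 1.03 and 10.4 ± 1.16 CPM gave a log2 fold change of 0.33 (SE 0.10, adjusted p = 0.0223). Its complex partner Ddb1 did not follow, with 252 ± 11.5 CPM in Control and 253 ± 6.84 CPM in EtOH mice and a 95% interval of the log2 fold change from -0.10 to 0.10. Ercc2, which encodes the XPD helicase of the transcription factor TFIIH, had 16.3, 17.5, 17.1, 21.2 and 19.4 CPM in EtOH mice and 14.2, 15.9 and 17.0 CPM in the lowest, median and highest Control mouse. Only EtOH 1 fell within the Control range, and the log2 fold change was 0.24 (SE 0.08, adjusted p = 0.0371). Ercc3, the other TFIIH helicase (XPB), had a log2 fold change of 0.17 and missed the threshold (adjusted p = 0.0646). The damage sensor Xpc (-0.00), the scaffold Xpa (0.14) and the incision nucleases Ercc1 (-0.10), Ercc4 (0.05) and Ercc5 (-0.03) were not called.

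Base excision and single-strand break repair held 1 called gene of 11. Parp1, the enzyme that senses nicks and builds chains of ADP-ribose, had 85.2, 77.8, 82.1, 88.7 and 77.5 CPM in EtOH mice and 69.0, 74.1 and 77.6 CPM in the lowest, median and highest Control mouse. Control 2, at 77.6 CPM, lay just above EtOH 5, and the log2 fold change of 0.16 was the smallest among the called genes (SE 0.05, adjusted p = 0.0329). Ung had 1.74, 1.74, 0.954, 1.64 and 1.98 CPM in EtOH mice against 1.38, 2.37 and 2.91 CPM in the lowest, median and highest Control mouse, and its log2 fold change of -0.47 did not pass the test (SE 0.21, adjusted p = 0.11).

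None of the other base excision genes was called. Of all 11 genes of the group, 8 had a positive value, and a shared direction was not tested. The glycosylases Neil1, Ogg1 and Mutyh had log2 fold changes of 0.24, -0.03 and -0.07, and Apex1, the endonuclease that cuts at the emptied site, had 0.31. Polb had 0.11 and the scaffold Xrcc1 had 0.09. The ligases Lig3 and Lig1 had 0.19 and 0.08, and Parp2, a relative of Parp1, had 0.06.

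Among the crosslink genes, Fanca, a subunit of the core complex that ubiquitinates Fancd2 and Fanci, was higher. It had 2.55, 3.08, 1.88, 3.28 and 2.10 CPM in EtOH mice and 1.40, 1.77 and 2.15 CPM in the lowest, median and highest Control mouse. A total of 3 EtOH mice lay above the Control range and 2 within it, so the estimate of 0.52, the largest of the members, was also one of the less precise (SE 0.17, adjusted p = 0.0378). The other 5 genes ranged from -0.15 (Fanci) to 0.16 (Fancl, the ligase subunit), with Fancg at 0.07, Fancd2 at 0.05 and Fancc at -0.02, and none was called.

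Rpa1 encodes the large subunit of replication protein A, which coats single-stranded DNA in replication and in most repair pathways. It had 55.7, 45.6, 46.3, 47.3 and 51.2 CPM in EtOH mice and 41.0, 43.6 and 44.8 CPM in the lowest, median and highest Control mouse. It was the 1 member in which all EtOH mice lay above all Control mice, an arrangement found in 4.84% of all genes tested and reversed in 4.96%. The log2 fold change was 0.19 (SE 0.06, adjusted p = 0.0224). Pcna, the marker of S phase that the study stained, had 32.5, 27.5, 24.6, 27.4 and 26.6 CPM in EtOH mice and 26.7, 29.2 and 31.9 CPM in the lowest, median and highest Control mouse. The groups overlapped throughout, with EtOH 1 the highest and EtOH 3 the lowest of all 12 mice, and the log2 fold change of -0.07 was not called (95% interval -0.23 to 0.09).

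Homologous recombination held 0 called genes of 10, by edgeR and by DESeq2. At an unadjusted p under 0.05 there was 1, Brca2, which loads the recombinase onto DNA (log2 fold change 0.25, adjusted p = 0.105). Brca1, which helps choose recombination at a break, had -0.37 (adjusted p = 0.340), with Control 3 at 0.442 CPM against 1.5003 to 2.04 CPM in the other Control mice. The end-resection complex of Mre11a, Rad50 and Nbn had 0.08, 0.02 and -0.04, and Palb2, Xrcc2, Xrcc3, Rad52 and Rad54l ranged from -0.09 to 0.08. Mgmt, the 1 gene of direct reversal, had -0.39 (adjusted p = 0.372) at a mean of 0.783 CPM in Control mice.

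Across pathways, 7 of the 9 groups held at least 1 called gene, where 12.1% of all genes tested were called higher. With a mouse left out, the number of groups with a call ran from 4 to 8. Members known to be transcribed mainly in S phase (Brca1, Brca2, Chek1, Exo1, Rad54l, Fancd2, Fanci, Fanca, Pcna, Lig1, Msh6 and Ung) had a median log2 fold change of -0.03 with 6 of 12 positive and 1 called. The other 45 members had a median of 0.08 with 32 positive and 8 called. Calls made 8.33% of the former and 17.8% of the latter. Over all genes tested, 12.1% were called higher and 50% were positive. The S phase-linked members had lower levels (median 2.02 against 14.3 CPM in Control mice) and larger SEs (median 0.19 against 0.10). No test was made of the difference in fold changes or calls.

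Promoter sequences from RefSeq (GRCm38.p6, the 250 bases before to 50 bases after the start) were found for 46 of the 57 members, 7 of them called. E2F factors drive many genes of S phase, and the letters TTTCCCGC or TTTGGCGC of an E2F site, on either strand, were in 7 of the 46 windows (15.2%) beside 2.81% of the 12445 tested genes with a promoter and 1.63% of all 27025 promoters. The member windows were richer in GC than all windows (medians of 59.7% and 52.7%), which bears on how often any such letters occur. The 7 genes were Fancg, Chek2, Brca2, Msh3, Xrcc6, Mdc1 and Msh6. None was among the called genes, and 0 of the 7 called genes with a window held the letters. The TTTGAA letters of the cell cycle homology region were in 4.35% of the member windows and in 11.9% of those of tested genes. The 120 bases before the start are shown for the 3 windows in which the E2F letters, in capitals, lay before the start and closest to it, and for Pms2, the called gene with the smallest p, in which they were not found.
Fancg, chr4:43010302-43010421, minus strand: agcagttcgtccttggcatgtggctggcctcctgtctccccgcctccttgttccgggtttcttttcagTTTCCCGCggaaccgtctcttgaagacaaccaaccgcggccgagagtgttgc
Xrcc6, chr15:82016249-82016368, plus strand: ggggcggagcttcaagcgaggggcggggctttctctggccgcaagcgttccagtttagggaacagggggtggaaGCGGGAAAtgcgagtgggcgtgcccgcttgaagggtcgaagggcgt
Mdc1, chr17:35841378-35841497, plus strand: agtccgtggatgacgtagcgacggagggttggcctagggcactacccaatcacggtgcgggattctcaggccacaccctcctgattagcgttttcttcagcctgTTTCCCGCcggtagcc
Pms2, chr5:143909881-143910000, plus strand: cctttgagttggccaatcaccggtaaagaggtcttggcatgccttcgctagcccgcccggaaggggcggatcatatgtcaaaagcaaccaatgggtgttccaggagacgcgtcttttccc
The letters began 52 bases before the start in Fancg, 46 in Xrcc6, where they lie on the other strand, and 16 in Mdc1. A match in letters is no evidence of binding, and the log2 fold changes of these 3 genes were 0.07, 0.24 and 0.05.

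Longer genes were called higher more often over all genes tested, and less plainly among the members. The 9 called members had a median canonical transcript length of 5.38 kb, the other members 3.31 kb and all genes tested 3.37 kb. When the 15691 tested genes with a length were cut into 10 groups of equal size by length (deciles), 5.41% of the shortest decile were called higher and 10.6% lower, whereas in the longest decile (7.14 to 123 kb) 32.8% were called higher and 6.05% lower. Atm and Prkdc, with transcripts of 12.55 and 12.65 kb, were the 2 called of the 9 members in that longest decile, whereas Dclre1c (2.49 kb) and Ddb2 (3.07 kb) were called below the median length of all genes. Across genes, which share the same 12 libraries, Spearman's rho of log2 fold change on length was 0.11 over the 57 members and 0.22 over all genes with a length. Over all genes, weighted to the lengths of the members, the background would be 13.8% higher and 11.5% lower.

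In a fit that took a smooth trend with length out of each mouse, chosen after the data had been seen, 8 members (14%) were called higher, against 11.1% of all genes, and 5 of them were among the 9. Pms2, Ddb2, Parp1, Ercc2 and Dclre1c kept the call, and Xrcc6, Ercc3 and Neil1 gained it. Prkdc had a log2 fold change of 0.14 (adjusted p = 0.221) and Atm 0.21 (adjusted p = 0.240) in that fit, and the calls of Rpa1 (0.14, adjusted p = 0.0796) and Fanca (0.44, adjusted p = 0.0774) were lost as well. With the same correction for GC content, 7 members (12.3%) were called higher against 12.9% of all genes, and the calls of Atm and Dclre1c were lost. With no filter on low counts, 6 members (10.5%) were called higher against 7.92% of all genes, and those of Ercc2, Fanca and Parp1 were lost.

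**Figure D4:**
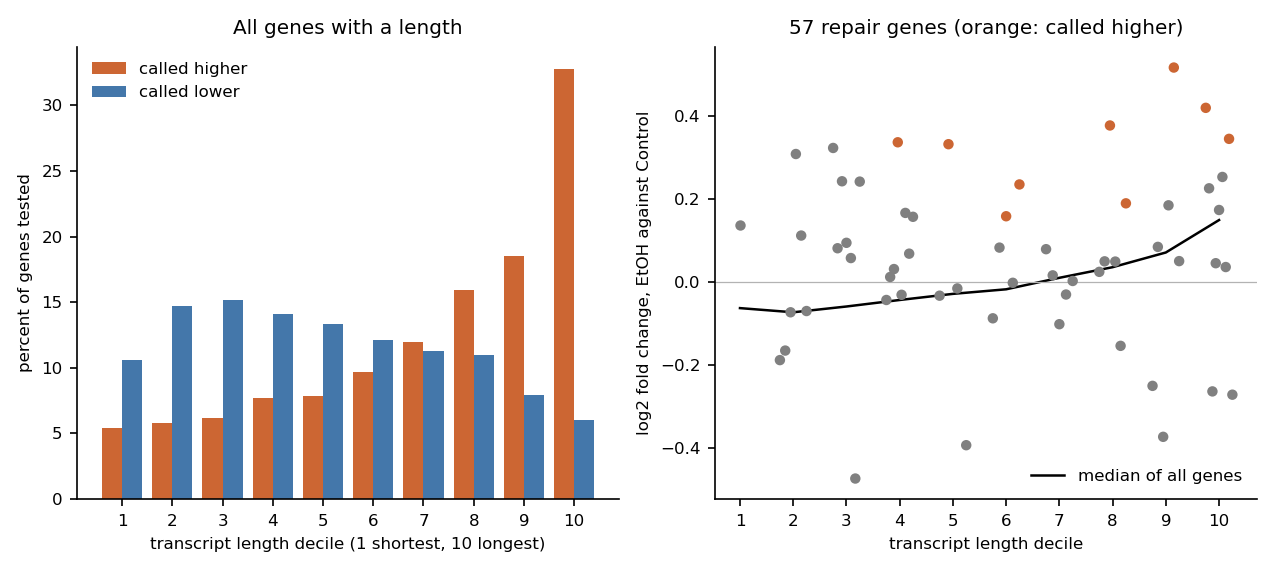
Left, percent of all tested genes called higher (orange) and lower (blue) in each decile of transcript length, from 5.41% higher in the shortest to 32.8% in the longest decile. Right, log2 fold change of each of the 57 repair genes by its length decile (orange, called higher), with the median of all genes as a line that runs from -0.06 to 0.15.

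Mice of a group did not behave alike in this respect. The median log2 level of the longest decile minus that of the shortest, relative to the Control mean, was between -0.24 and 0.18 in Control mice and between 0.14 and 0.27 in EtOH mice. Control 5 and Control 6 (0.17 and 0.18) lay within the EtOH range. The median deviation of the 57 members was between 0.06 and 0.14 in EtOH mice and between -0.05 and 0.02 in 6 Control mice, but 0.09 in Control 5. The share of all counts that fell on the members was 0.117% to 0.124% in EtOH mice, 0.107% to 0.112% in 6 Control mice and 0.121% in Control 5.

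Total counts ran from 31768079 to 42183031, and Control 5 (40690226) and EtOH 1 (42183031) were the deepest libraries. The count of called members depended on single mice. Without Control 5, 14 members were higher and 1 lower (Rnf8), with Trp53bp1, Xrcc6, Ercc3, Brca2 and Apex1 added to the 9; the share over all genes in that fit was 14.3% higher and 15.0% lower, beside 24.6% and 1.75% of the members. The count was 5 without Control 1, 2 or 4 or EtOH 2 or 4, and 4 without Control 3 or EtOH 5, all of them higher. These are 8.77% and 7.02% of the members, where between 9.85% and 11.3% of all genes were called higher in those fits. Without Control 7, 8 members (14%) were higher and Ung (1.75%) was lower, against 11.8% and 11.5% of all genes. Without both deeper libraries, 12 members (21.1%) were higher and 1 (1.75%) was lower, against 13.5% and 11.5% of all genes. The share of members called higher thus lay above that of all genes in some of these fits and below it in others.

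The called genes differed in how far they rested on 1 mouse. Pms2 and Prkdc were called in all 12 fits with a mouse left out, with adjusted p up to 0.0271 and 0.0456. Ddb2 lost the call without EtOH 2 or EtOH 5 (adjusted p up to 0.0691), and Rpa1 without EtOH 1 or EtOH 5 (up to 0.0715). Ercc2 lost it without Control 1, 2, 3 or 4 or EtOH 4 or 5 (up to 0.121). Parp1 lost it without Control 1, 3, 4 or 6 or EtOH 1, 3 or 4 (up to 0.0970), and Fanca without Control 2, 3, 4 or 6 or EtOH 1, 2 or 4 (up to 0.116). Dclre1c lost it without Control 1, 2, 3 or 4 or EtOH 1, 2, 3 or 5 (up to 0.102). Atm was called in 2 of the 12 fits, those without Control 4 or Control 5 (up to 0.106 in the others).

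**Figure D5:**
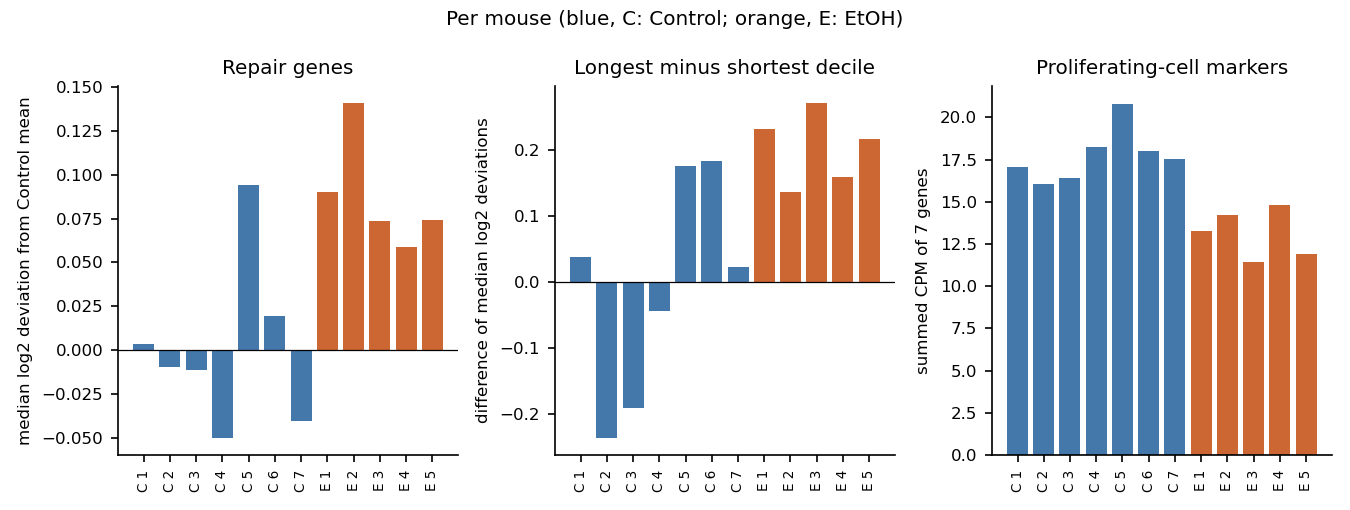
Values of each mouse (blue bars, C, 7 Control; orange bars, E, 5 EtOH): the median log2 deviation of the 57 repair genes from the Control mean, the difference between longest and shortest genes in log2 units, and the summed CPM of 7 markers of proliferating cells. Control 5 stands with the EtOH mice in the repair genes (0.09). The marker sums do not overlap, with 16.02 CPM in the lowest Control and 14.8 CPM in the highest EtOH mouse. Singly, 2 of the 7 markers lay lower in every EtOH than in every Control mouse, as did 4.96% of all genes tested.

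Markers of brain regions and cell types differed between groups. Over all genes tested, 12.1% were called higher and 11.6% lower. The summed level of 10 striatal markers was 840 to 1849 CPM in Control and 212 to 265 CPM in EtOH mice, and that of 7 hippocampal markers 28.7 to 35.8 against 136 to 181 CPM, all 10 lower and all 7 higher. Of 7 microglial markers, 4 were lower and 0 higher (sums of 296 to 324 against 255 to 279 CPM), and of 7 oligodendrocyte markers 7 were lower, with overlapping sums. Of 7 markers of proliferating cells, 3 (Top2a, Aurkb and Mcm5) were lower and 0 higher (16.02 to 20.8 against 11.4 to 14.8 CPM). Mki67, Cdk1, Ccnb1 and Mcm2 were not called. Mcm2 and Mcm5 weighed most in the sum, with means of 5.75 and 6.21 CPM in Control mice. Neuronal markers were high in every library and went both ways. Of 8, 4 were lower (Snap25, Rbfox3, Gad1 and Gad2) and 1 was higher (Map2), with overlapping sums of 10777 to 12664 and 11322 to 12257 CPM. Astrocyte markers were higher in 3 of 6 and lower in 0, with overlapping sums, and oligodendrocyte precursor markers higher in 2 of 4, likewise with overlapping sums. Of 5 immature neuron markers, 2 were higher and 2 lower, with sums of 59.7 to 79.1 against 79.2 to 99.7 CPM. Of 4 choroid plexus markers tested, 3 were higher, with sums of 7.15 to 20.7 against 11.4 to 980 CPM. Of 4 endothelial markers, Ly6c1 was lower (log2 fold change -0.64) and the others were not called, and of 3 red blood cell markers none was called, with Control 6 far above the other Control mice (a sum of 109.8 CPM against a Control median of 11.6). No marker list except that of the choroid plexus held a gene too low to be tested. All libraries are labelled as cortex, and whether the pieces held different shares of neighbouring regions was not tested, nor was the part of any of these differences in the values of the repair genes.

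Among 98 other repair genes, chosen by function from the same pathways and, for 7 of them, from translesion synthesis, 94 were tested, of which 13 (13.8%) were higher and 7 (7.45%) lower, with a median log2 fold change of 0.03. Over all genes tested, 12.1% were higher and 11.6% lower. With the minimum log2 fold change of 0.5, 3 remained and all were lower. The shares of all genes tested past that minimum were 4.2% higher and 4.09% lower. Clspn, the adaptor through which Atr activates Chek1, fell from 3.27 ± 0.910 to 1.30 ± 0.428 CPM (log2 fold change -1.32, SE 0.23, adjusted p = 0.000617). Fancb, a subunit of the Fanconi core complex, fell from 2.91 ± 0.536 to 1.64 ± 0.222 CPM (-0.83, SE 0.16, adjusted p = 0.00131). Parp3, a further break-sensing relative of Parp1, fell from 4.74 ± 0.658 to 3.29 ± 0.142 CPM (-0.52, SE 0.12, adjusted p = 0.00406). In each of the 3, every EtOH mouse lay below every Control mouse, and the call held in all 12 fits with a mouse left out.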

How the data were processed

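Total RNA of mouse cortex was sequenced by a service provider. The authors checked reads with FastQC 0.11.9, aligned them with STAR to GRCm39 (Gencode release 28) and counted them on genes with featureCounts; strand and multi-mapping settings are not given in the sources used here. The deposited table holds expected counts per gene symbol without normalization. Of 33024 rows, 61 held values that were not whole, and counts were rounded. The counts were filtered with filterByExpr, normalized with TMM and compared with edgeR's quasi-likelihood test (edgeR 4.0.16, limma 3.58.1, R 4.3.3). The SE was taken as the absolute log2 fold change over the root of the F statistic. CPM values use TMM library sizes. The members and lists were chosen with earlier results of these data known.

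Named are members with adjusted p under 0.05, the 3 highest and 3 lowest log2 fold changes, members whose protein the study stained or discussed, and the highest and lowest level per length of each pathway. Other members are given by value and count to account for all 57. Of the other repair genes, those past the adjusted p and the fold minimum of 0.5 on the log2 scale are named. So are those in which every EtOH mouse lay above every Control mouse. Transcript lengths are those of Ensembl canonical transcripts in Gencode release 39. Exons of 45 members overlap another gene on either strand, and of 6 on the same strand, so reads there are uncertain.

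The fit was repeated with limma voom, with DESeq2 1.42.0, with other library factors (upper quartile, relative log expression), with no filter, with 10 or more counts required of each mouse, with the fold minimum, with replicate number as a block and with each mouse left out. Length and GC trends per mouse and leaving out both deeper libraries were added after seeing the data. In simulated data for this comparison over 15914 genes, edgeR recovered 81 of 100 genes changed by a log2 of 0.5 and 100 of 100 changed by 1, with 7 false calls. The changed genes were drawn only from genes above a minimum mean count, which the lowest members, such as Exo1 and Fanci, did not reach. They were also a far smaller share than the genes called in the real data. The recovery therefore does not describe low members or changes smaller than 0.5. No pair of libraries of a group agreed within sampling noise. A limit of 3 counts corresponds to 0.0711 to 0.0944 CPM, for counting error only.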

Additional observations from a re-analysis of the deposited data

Results flagged for a closer look

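In 118 groups of mice examined (each of the 57 members, the total counts and the members' share of counts, in Control and in EtOH mice), 11 held a mouse far from the others of its group by Dixon's criterion, where chance alone gives about 1 in 20 groups, or 5.9. Control 5 was apart 3 times, as the highest of the Control mice in total counts (40690226 against 32356909 in the next), in the share of counts on the members (0.121% against 0.112%) and in Trp53bp1 (114 against 98.1 CPM).

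EtOH 1 had the highest total counts of the EtOH mice (42183031 against 33313165) and the lowest level of Rad54l (0.533 against 1.103 CPM). Control 2 was the highest of the Control mice in Xpa (6.80 against 5.17 CPM) and Ercc1 (23.4 against 20.9 CPM) and the lowest in Fancg (12.8 against 14.2 CPM). Control 3 was the lowest of the Control mice in Brca1 (0.442 against 1.5003 CPM). EtOH 4 was the lowest of the EtOH mice in Brca2 (7.40 against 9.32 CPM), and EtOH 5 was the highest in Lig3 (27.9 against 24.2 CPM).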

How the results depend on the processing

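Of the alternatives to the edgeR fit, DESeq2 called 11 repair genes (adding Trp53bp1 and Xrcc6), 19.3% against 13.8% of all genes higher, and limma voom 9 (15.8% against 12.1%). With a minimum log2 fold change of 0.5, 1331 genes in all, 1 of the 57 members, 3 of the other repair genes and 1 pathway remained called, against 3810, 9, 20 and 7 without it. With a mouse left out, these counts ran from 3124 to 4672, 4 to 15, 12 to 24 and 4 to 8. The length correction left 4 pathways with a call. The replicate numbers did not pair the mice (correlations of deviations between -0.11 and 0.02). With the replicate block, 5 members (8.77%, against 11.5% of all genes) were higher and 1 lower (Ung; 1.75% against 10.3%), 4 of them shared with the 9, and 4 pathways held a call. The median of the S phase-linked genes was -0.027. It was 0.017 when each mouse had to have 10 counts, where Fanci was not tested, -0.069 with the replicate block and -0.068 to -0.0062 with a mouse left out. Genes near no change turned sign: Pcna (0.0012), Rad54l (-0.099) and Ddb1 (-0.012) with the length correction, Ddb1 with upper quartile factors (-0.0019), Rad54l with limma voom (-0.029) and Msh6 with the GC correction (-0.0034). With a mouse left out, Ddb1 ran from -0.0080 to 0.015, Rad54l from -0.044 to 0.22, Msh6 from -0.0059 to 0.054 and Fanci from -0.60 to 0.027. Of 571 values of 26 named members, 487 kept direction and side of the threshold, 57 lost the call, 5 gained it and 22 turned sign. Where not set by the alternative's own construction, the cause was not tested. Genes under 2 CPM rest on few counts.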
